A study of Mus musculus with 7 samples.

Results

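The 9 genes described here encode the cell's machinery for making, regenerating and using up glutathione: Gclc, Gclm, Gss, Gsr, Slc7a11, Ggt1, Ggt5, Abcc1 and Abcc4. They were chosen by gene symbol, with no measured value in the rule but with earlier results of these data known. All 9 were found among the 21861 rows of the deposited count table. The retinal pigment epithelium (RPE), which nourishes the photoreceptors and recycles their visual pigment, was sampled from aged mice 12 weeks after treatment with an adeno-associated virus (AAV) carrying GFP (AAV-GFP, 3 libraries) or the glutathione transferase GSTA4 (AAV-GSTA4, 4 libraries), named GFP 1 to 3 and GSTA4 1 to 4 by group and replicate. Both groups therefore had aged tissue and an AAV vector in common and differed by the labels in the transgene alone. The mouse strain, sex and age, the promoter of the vectors, and whether a library came from 1 animal or from pooled animals are not given in the sources used here. The p-values therefore set a group difference against the spread between these libraries, which may in part be technical.

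Glutathione is built from glutamate, cysteine and glycine. Slc7a11, the light chain of the cystine-glutamate exchanger xCT, brings in cystine. Glutamate-cysteine ligase, composed of the catalytic subunit Gclc and the modifier subunit Gclm, carries out the rate-limiting step, and glutathione synthetase, Gss, completes the tripeptide. Glutathione reductase, Gsr, returns oxidised glutathione to its reduced form. Glutathione transferases such as GSTA4 join glutathione to reactive aldehydes, and the conjugates leave the cell through ATP-driven pumps such as Abcc1 (MRP1); Abcc4 (MRP4) is a related pump. Outside the cell the gamma-glutamyl transferases Ggt1 and Ggt5 begin the breakdown of glutathione and its conjugates. The comparison of AAV-GSTA4 with AAV-GFP addresses whether RNA of this supply and disposal route differed in eyes given the GSTA4 vector.

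Promoter sequences are shown for 3 members. Gclm is a classic target of the oxidative stress factor NRF2, and Slc7a11 also responds to amino acid shortage through ATF4. Abcc4 is 1 of the export pumps, shown because its levels separated the groups on 1 of the scales used below. They are RefSeq windows on GRCm38.p6, from 250 bases before to 50 after the annotated start, read 5′ to 3′ on the gene's strand. Capitals mark matches, on either strand, to the antioxidant response element core TGACNNNGC or to TGATGNAA, a core shared by ATF4-type response elements; these 2 searches did not overlap in any window shown. The windows lie at chr3:122245307-122245606 (Gclm, plus strand), chr3:50443564-50443863 (Slc7a11, minus strand) and chr14:118706170-118706469 (Abcc4, minus strand).
Gclm: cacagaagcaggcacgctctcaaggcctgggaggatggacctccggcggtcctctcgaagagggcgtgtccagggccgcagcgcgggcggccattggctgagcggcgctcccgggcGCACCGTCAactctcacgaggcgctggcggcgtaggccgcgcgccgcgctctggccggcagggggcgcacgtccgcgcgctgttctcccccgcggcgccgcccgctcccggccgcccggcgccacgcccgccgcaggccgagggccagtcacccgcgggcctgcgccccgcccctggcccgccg
Slc7a11: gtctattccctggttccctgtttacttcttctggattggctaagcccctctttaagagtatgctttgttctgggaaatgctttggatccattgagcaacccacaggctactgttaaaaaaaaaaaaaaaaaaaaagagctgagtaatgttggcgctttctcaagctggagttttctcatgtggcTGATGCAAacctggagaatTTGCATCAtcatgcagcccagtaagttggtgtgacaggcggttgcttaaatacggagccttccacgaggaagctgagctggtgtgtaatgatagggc
Abcc4: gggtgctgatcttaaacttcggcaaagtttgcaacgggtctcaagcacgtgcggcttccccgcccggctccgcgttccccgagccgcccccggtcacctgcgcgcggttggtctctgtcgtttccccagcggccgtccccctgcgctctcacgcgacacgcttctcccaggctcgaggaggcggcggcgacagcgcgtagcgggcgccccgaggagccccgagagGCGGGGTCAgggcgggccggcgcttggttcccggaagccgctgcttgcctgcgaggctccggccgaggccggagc
The Gclm window held 1 match to TGACNNNGC, beginning 134 bases before the start, and the Abcc4 window held 1, beginning 25 bases before the start. The Slc7a11 window held 2 matches to TGATGNAA, on opposite strands, beginning 66 and 47 bases before the start, and none to TGACNNNGC. Of all 32851 RefSeq windows of this length, 12.4% held TGACNNNGC and 3.97% held TGATGNAA. Windows were matched for 5 of the 9 genes. Of those not printed, the Gss window held neither motif, and TGACNNNGC was in 3 of the 4 Ggt1 windows and in a second Abcc4 window. A match describes the letters of the window and is not evidence of a bound factor.

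The libraries held 15329181 to 28998964 counts. All 15 RPE marker genes were counted in every library and together took 3.26% to 9.65% of the counts, so the defining markers of the labelled tissue were present. The hGSTA4 row had 3, 1 and 1 counts in GFP 1 to 3 and 4209, 5239, 45 and 1184 counts in GSTA4 1 to 4. The d2EGFP row overlapped between the groups, with 99, 3970 and 2361 counts against 163, 64, 7 and 26, because GFP 1 was low, and mouse Gsta4 had a log2 fold change of -0.25 ± 0.37 (SE), edgeR adjusted p = 0.819. Photoreceptor and lens RNA was present as well. Rod markers took 1.29%, 2.40% and 5.31% of counts in GFP 1 to 3 and 0.657% to 1.27% with GSTA4 (exact permutation test, two-sided, p = 0.0286, the smallest this design allows; adjusted over 8 marker lists, 0.229). Lens markers took 12.2% of GSTA4 2 and 0.419% to 2.64% of the other 6 libraries. GFP 3 stood apart, with a log2 CPM correlation with the others of 0.838 on average, whereas the rest had 0.910 to 0.926. In bulk tissue, fewer cells of a type and less RNA per cell cannot be told apart.

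None of the 9 genes differed between the groups at the adjusted threshold of 0.05 in edgeR's quasi-likelihood test, where 0 of 15075 genes tested (0%) did so. The hGSTA4 row, with a log2 fold change of 10.7, was not called either. The lack of calls is thus not evidence that the 9 genes were unchanged. All 9 passed the filter on low counts. Levels are given as CPM, counts scaled to a common library total, after trimmed-mean (TMM) scaling, and fold changes are GSTA4 against GFP. Unadjusted p-values under 0.05 were found for 3 of the 9 genes, Gss, Abcc1 and Abcc4, all 3 with the higher mean with GSTA4, where 11.9% of all genes tested did so (5.27% higher and 6.63% lower). With library totals in place of TMM scaling the split was 1 higher, Abcc1, and 1 lower, Ggt5, beside 15.9% of all genes (1.78% higher and 14.1% lower). With RPE marker counts as the library size, a scale chosen after seeing the data, it was 0 higher and 1 lower, Ggt5, beside 33% of all genes (0.0929% higher and 32.9% lower). With TMM scaling Abcc1 and Abcc4 were also the only 2 of the 9 whose libraries did not overlap between the groups, which held for 12% of all genes (6.44% with GSTA4 higher and 5.61% lower). With library totals 0 of the 9 were without overlap, beside 14% of all genes (2.02% higher and 12% lower). Per RPE marker count the 2 genes without overlap were Gclm and Ggt5, both lower with GSTA4, beside 20.8% of all genes (0.279% higher and 20.5% lower). The median log2 fold change of the 9 was -0.03, beside -0.07 for all genes tested.

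**Figure D1:**
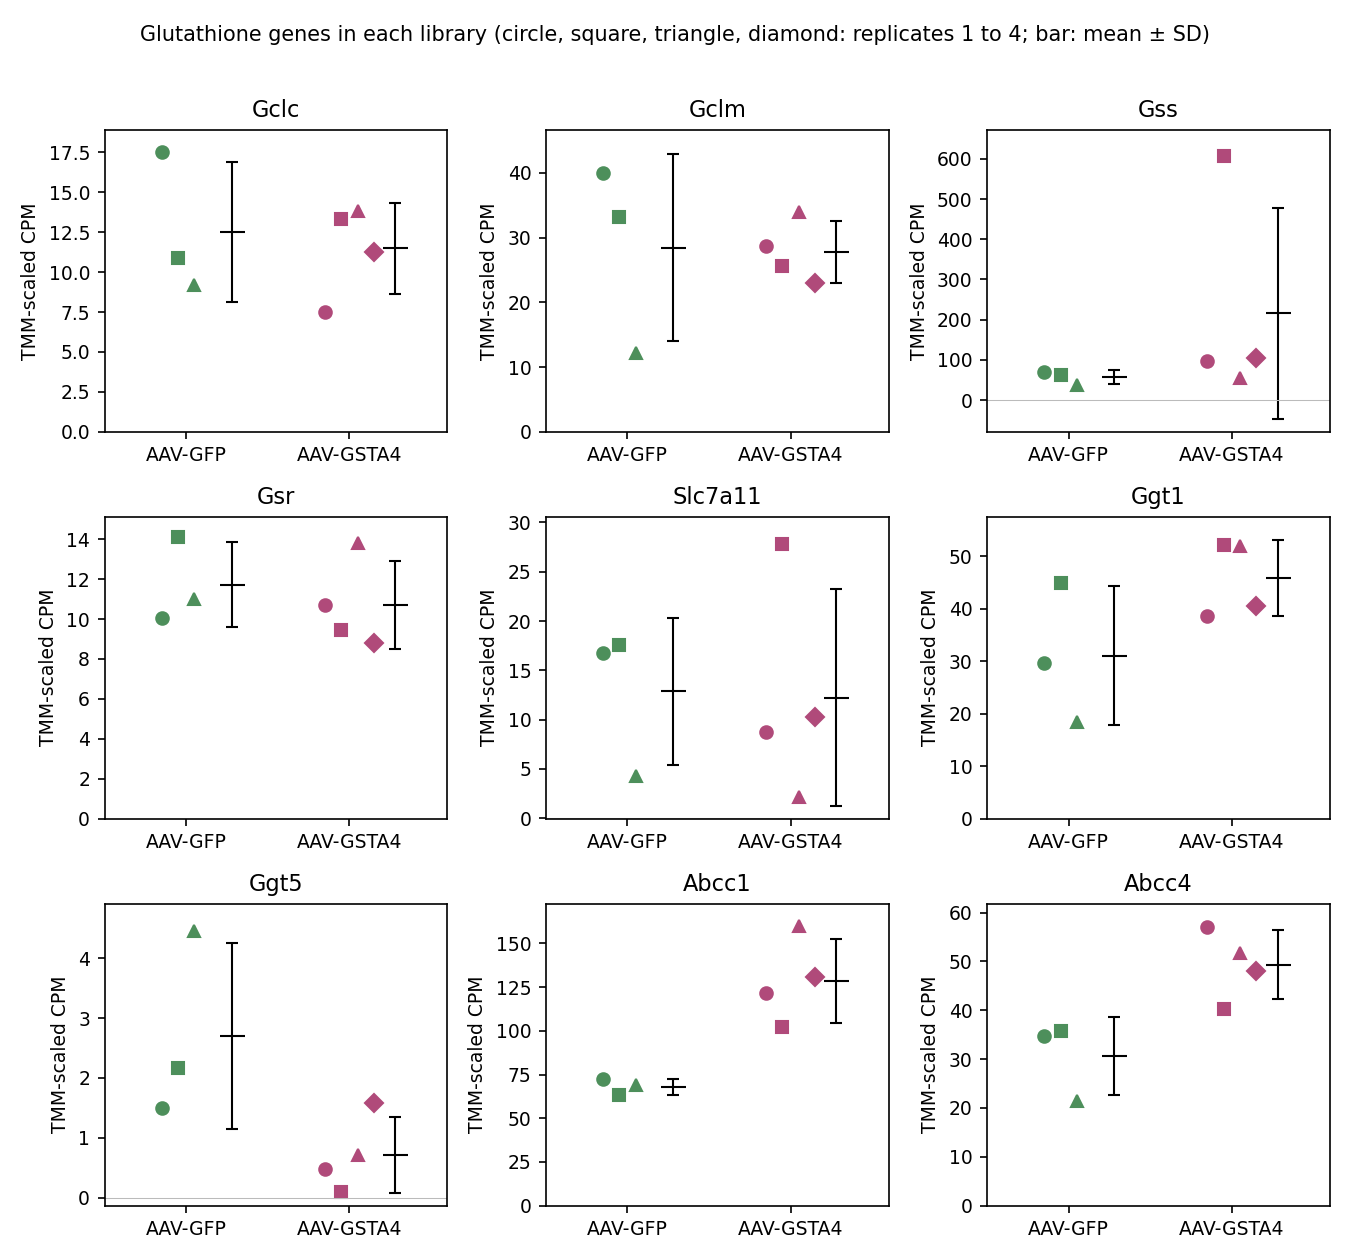
Level of each of the 9 genes in each library, as TMM-scaled CPM (linear axes), by vector; green and magenta points are GFP and GSTA4 libraries, their shapes the replicates 1 to 4, and bars the mean ± SD. Abcc1 and Abcc4 were separated between the groups, Gss had 1 library at 607 CPM, and the other 6 genes overlapped.

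The 2 subunits of the ligase that starts glutathione synthesis had nearly the same mean in both groups with TMM scaling. Relative to RPE markers their fold changes were negative, as was the median of all genes tested. Gclc (chromosome 9, 77754535 to 77794485, GRCm38) was at 17.5, 10.9 and 9.21 CPM in GFP 1 to 3 and at 7.52, 13.3, 13.8 and 11.3 CPM in GSTA4 1 to 4. The highest and the lowest libraries were thus both replicate 1, of GFP and of GSTA4. The means, 12.5 CPM ± 4.39 (SD, n = 3) against 11.5 CPM ± 2.86 (SD, n = 4), gave a log2 fold change of -0.13 ± 0.34 (SE), edgeR adjusted p = 0.908. Gclm (chromosome 3, 122245557 to 122270732) was at 39.9, 33.2 and 12.2 CPM with GFP and at 28.8, 25.6, 34.0 and 22.9 CPM with GSTA4. The GSTA4 libraries all lay inside the GFP range. The log2 fold change of Gclm was -0.03 ± 0.37 (SE), edgeR adjusted p = 0.982. Per 1000 RPE marker counts, Gclm had 0.551, 0.574 and 0.511 counts with GFP and 0.347, 0.406, 0.306 and 0.248 with GSTA4, so every GSTA4 library was lower. The same held for 20.5% of all genes tested. On that scale Gclc averaged 0.271 ± 0.102 (SD, n = 3) against 0.137 ± 0.0520 (SD, n = 4) and its libraries overlapped. With RPE marker counts as the library size the log2 fold changes were -0.98 for Gclc (edgeR adjusted p = 0.186) and -0.74 for Gclm (0.198), and without GFP 3 they were -0.65 and -0.78. The median of all genes tested was -1.07 on that scale, and -0.37 without GFP 3. Some Gclm exon bases are shared with a pseudogene on the same strand and with an antisense transcript, and the strand and multi-mapping settings of the counting are not given in the sources used here.

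The balance of the 2 ligase subunits varied between libraries. Per exon length, Gclm RNA was 1.36, 1.83 and 0.795 times Gclc in GFP 1 to 3 and 2.29, 1.15, 1.47 and 1.22 times Gclc in GSTA4 1 to 4. Gclm exceeded Gclc in every library except GFP 3, and the groups overlapped. Over the 7 libraries the Pearson correlation of their log2 CPM was 0.52, which ranked Gclm 2315th of 15074 genes for likeness to Gclc. The 5 genes most like Gclc were Gramd1c (r = 0.980), Stag2 (0.972), Arl5a (0.970), Tes3-ps (0.963) and Gm4924 (0.961), a description over 7 libraries that share depth and composition effects. For the other 7 of the set r with Gclc ranged from -0.14 to 0.23.

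Gss averaged higher with GSTA4, and the size of that difference rested on 1 library. Gss (chromosome 2, 155563181 to 155592810) was at 69.2, 63.8 and 37.2 CPM with GFP and at 97.4, 607, 54.5 and 104 CPM with GSTA4. GSTA4 2, with 12670 Gss counts, was far above every other library, and GSTA4 3 lay within the GFP range. The log2 fold change was 1.93 ± 0.78 (SE); its edgeR adjusted p was 0.388. Without GSTA4 2 it was 0.60 ± 0.33 (SE), edgeR adjusted p = 0.509.

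The library with high Gss was also the one with high lens RNA. The 10 lens markers took 0.874%, 1.45% and 0.430% of counts in GFP 1 to 3 and 2.64%, 12.2%, 0.419% and 1.30% in GSTA4 1 to 4. The 2 libraries with the least Gss, GFP 3 and GSTA4 3, were those with the least lens RNA. All 9 lens markers that could be tested averaged higher with GSTA4 (median log2 fold change 2.51, 0 adjusted calls), and 1 further marker, Lim2, was too low to test. The part of lens RNA in the Gss difference was not tested. Acss2, whose exons overlap those of Gss on the opposite strand, was at 23.1 CPM in GSTA4 2, the lowest of all 7 libraries, against 24.7 to 35.1 CPM in the other 6. Acss2 was chosen after its values were seen. The antisense transcripts Gssos1 and Gssos2 also share exon bases with Gss, and their levels are not given here.

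**Figure D2:**
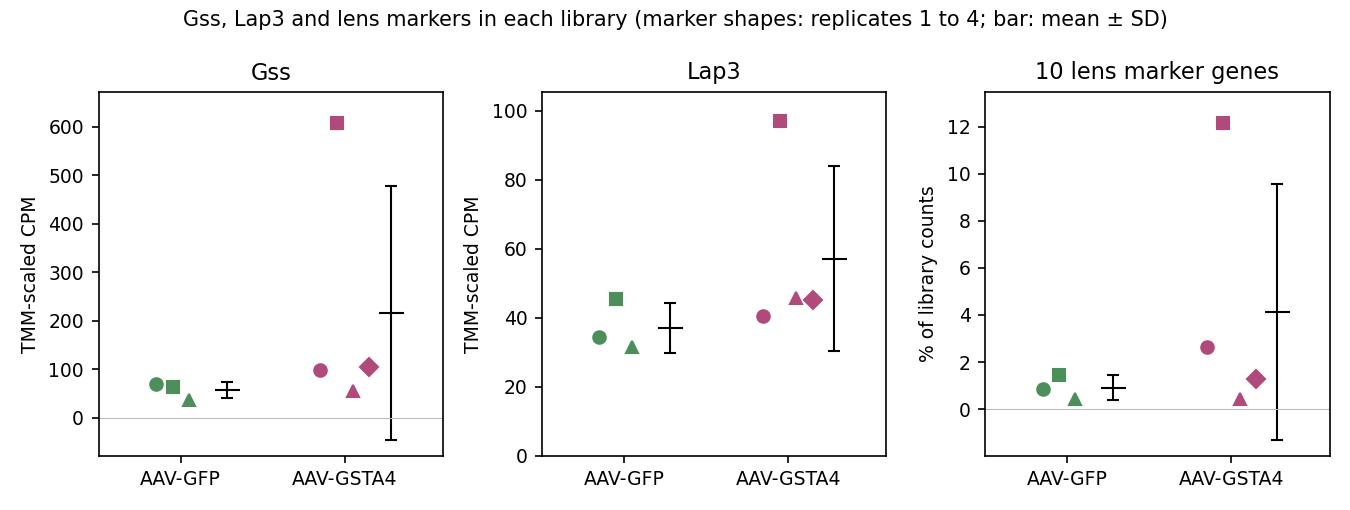
Gss, the aminopeptidase gene Lap3 (both TMM-scaled CPM) and the summed share of 10 lens marker genes (percent of library counts) in each library, by vector; point shapes are replicates 1 to 4 and bars the mean ± SD. GSTA4 2 was highest in all 3 panels, at 607 CPM, 97.1 CPM and 12.2%.

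The reductase and the cystine carrier did not separate the groups. Gsr (chromosome 8, 33652523 to 33698163) was the steadiest of the 9, with a highest library 1.603 times the lowest. It was at 10.1, 14.1 and 11.0 CPM with GFP and at 10.7, 9.44, 13.8 and 8.81 CPM with GSTA4, a log2 fold change of -0.13 ± 0.29 (SE), edgeR adjusted p = 0.884. With RPE marker counts as the library size it was -1.17 (edgeR adjusted p = 0.155), and without GFP 3 on that scale -0.62. The all-gene medians of these fits were -1.07 and -0.37. Slc7a11 (chromosome 3, 49892526 to 50443614) was at 16.8, 17.6 and 4.27 CPM with GFP and at 8.73, 27.8, 2.11 and 10.3 CPM with GSTA4. Its libraries spanned 13.2-fold, from GSTA4 3 to GSTA4 2, so both extremes fell in 1 group. Its log2 fold change was -0.07 ± 0.74 (SE), edgeR adjusted p = 0.980. As with Gss, Slc7a11 was highest in the library with the most lens RNA and lowest in the 2 libraries with the least; the part of lens RNA was not tested.

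The heavy chain that carries Slc7a11 to the membrane, Slc3a2, was far steadier than its partner. Slc3a2 was at 148, 186 and 170.0 CPM with GFP and at 213, 193, 266 and 221 CPM with GSTA4. Every GSTA4 library was above every GFP library, as held for 6.44% of all genes tested. The log2 fold change of Slc3a2, 0.41 ± 0.22 (SE), did not pass (edgeR, adjusted p = 0.478). With library totals the groups overlapped, since GFP 3 was at 231 CPM and GSTA4 2 at 174 CPM. Slc3a2 was singled out as the partner of Slc7a11 after its values were seen.

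The 2 gamma-glutamyl transferases, which lie side by side on chromosome 10, had fold changes of opposite sign with TMM scaling and library totals, and of the same sign with RPE marker counts as the library size (-0.25 for Ggt1 and -3.36 for Ggt5 on the log2 scale, -0.11 and -1.88 without GFP 3). With RPE marker counts the all-gene median was -1.07, and -0.37 without GFP 3, which lay between the 2 genes each time. Ggt1 (75561604 to 75586200) was at 29.7, 44.8 and 18.5 CPM with GFP and at 38.7, 52.1, 52.0 and 40.5 CPM with GSTA4. The groups overlapped through GFP 2, and the log2 fold change was 0.56 ± 0.30 (SE), edgeR adjusted p = 0.481. Ggt5 (75589340 to 75617200), which also acts on the leukotriene conjugate of glutathione, was far scarcer, with 32, 56 and 93 counts in GFP 1 to 3 and 9, 2, 12 and 43 counts in GSTA4 1 to 4. These were 1.49, 2.16 and 4.46 CPM against 0.473, 0.0959, 0.705 and 1.58 CPM; the 2 counts of GSTA4 2 were under the detection floor of 3 counts. GSTA4 4 exceeded GFP 1, so the groups overlapped, and the log2 fold change of -1.90 ± 0.89 (SE) did not pass (edgeR, adjusted p = 0.433).

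Ggt5 was highest in GFP 3, the library that stood apart. Endothelial markers took 0.0232% of counts there and 0.00350% to 0.00630% in the other 6 libraries; their part in the Ggt5 values was not tested. Macrophage markers took 0.0630% of counts in that library and 0.0596% to 0.0900% in the others. Without GFP 3 the log2 fold change of Ggt5 was -1.34 and that of Ggt1 0.30. Within a library and per exon length, Ggt5 RNA was 0.0289, 0.0278 and 0.139 of Ggt1 with GFP and 0.00704, 0.00106, 0.00781 and 0.0225 of Ggt1 with GSTA4. This ratio was lower in every GSTA4 library than in every GFP library, narrowly so between GSTA4 4 and GFP 2. It was not tested, rests on the low Ggt5 counts, and has no share over all gene pairs beside it. The ratios of Abcc1 to Abcc4, and of Gss, Gsr and Slc7a11 to Gclc, overlapped between the groups.

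The 2 export pumps were separated between the groups with TMM scaling. Abcc1 (chromosome 16, 14361558 to 14475737) was at 72.3, 63.2 and 68.8 CPM with GFP and at 122, 102, 159.8 and 131 CPM with GSTA4. On this scale the GFP libraries were tightly grouped, at 68.1 CPM ± 4.58 (SD, n = 3). Every GSTA4 library lay above them, at 129 CPM ± 23.9 (SD, n = 4). The ratio of levels was 1.89-fold, a log2 fold change of 0.92 ± 0.22 (SE) and an edgeR adjusted p of 0.363. In DESeq2 Abcc1 passed, at 0.94 ± 0.23 (SE) and an adjusted p-value of 0.0139, where 2% of the 10062 genes given one passed (1.17% higher and 0.825% lower). That was the lowest over 18 alternatives, which reached up to 0.865, and in limma-voom it was 0.0589. Abcc4 (chromosome 14, 118482692 to 118706219) was at 34.7, 35.8 and 21.3 CPM with GFP and at 57.1, 40.2, 51.7 and 48.1 CPM with GSTA4. Again every GSTA4 library was above every GFP library. Their averages, 30.6 CPM ± 8.04 (SD, n = 3) against 49.3 CPM ± 7.08 (SD, n = 4), gave a log2 fold change of 0.69 ± 0.25 (SE), edgeR adjusted p = 0.373 and 0.139 to 0.943 over the alternatives.

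The separation of both pumps depended on the scale. Library totals lowered the all-gene median from -0.07 to -0.37 on the log2 scale, and relative to that median Abcc1 was higher by 0.99 with TMM scaling and 0.98 with library totals, and Abcc4 by 0.76 and 0.80. Relative to the library totals without TMM scaling, Abcc1 was at 71.5, 66.3 and 93.5 CPM with GFP and at 117, 92.6, 139 and 123 CPM with GSTA4, and Abcc4 at 34.4, 37.5 and 29.03 CPM against 55.1, 36.4, 44.9 and 45.0 CPM. On that scale 1 pair of libraries overlapped for each pump, and in each pair the GSTA4 library was replicate 2, the lens-rich one. Relative to the RPE marker genes, Abcc1 had 0.998, 1.09 and 2.87 counts per 1000 RPE marker counts with GFP and 1.47, 1.63, 1.44 and 1.42 with GSTA4. Only GFP 3, which had the least RPE marker RNA (3.26% of counts), lay above the GSTA4 libraries. Abcc4 had 0.480, 0.617 and 0.891 counts per 1000 RPE marker counts with GFP and 0.689, 0.639, 0.465 and 0.520 with GSTA4, with overlapping groups. With RPE marker counts as the library size, the log2 fold changes in edgeR's test became -0.15 ± 0.42 (SE, adjusted p = 0.769) for Abcc1 and -0.20 ± 0.42 (SE, adjusted p = 0.702) for Abcc4, and without GFP 3 they were 0.51 and 0.08. The median of all genes tested fell to -1.07 on that scale, and was -0.37 without GFP 3. Both pumps lay above that median in each of these fits. RPE markers took 7.16%, 6.07% and 3.26% of counts with GFP and 7.998%, 5.70%, 9.65% and 8.65% with GSTA4, and the 2 ranges overlapped (exact permutation test, p = 0.143). The rod share of library totals was lower in every GSTA4 library, narrowly so between GFP 1 at 1.29% and GSTA4 1 at 1.27%. Of TMM scaling, library totals and RPE marker counts, only TMM scaling separated the groups for the pumps. Overlap was not examined with median-of-ratios size factors, a further scaling. There the log2 fold changes were 0.94 for Abcc1 and 0.70 for Abcc4 (edgeR adjusted p = 0.364 and 0.367). The part of rod RNA in the difference of the pumps was not tested.

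**Figure D3:**
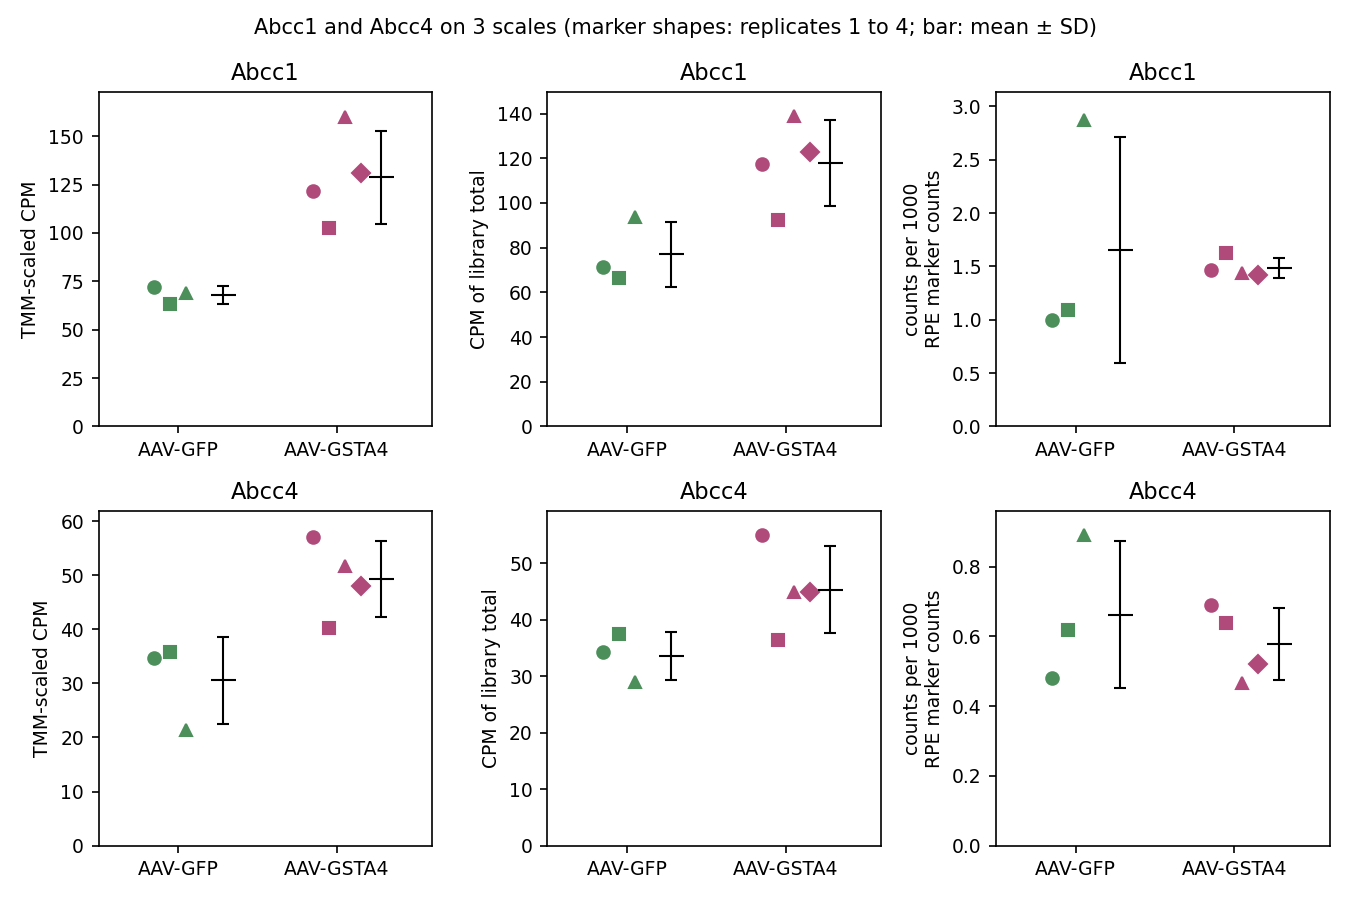
Abcc1 (top) and Abcc4 (bottom) in each library on 3 scales: TMM-scaled CPM, CPM of the library total, and counts per 1000 counts on 15 RPE marker genes; point shapes are replicates 1 to 4 and bars the mean ± SD. The groups were separated with TMM scaling, overlapped by 1 pair of libraries with library totals, and overlapped with the RPE scale, where GFP 3 was highest for both genes.

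Libraries also differed in Y-linked transcripts, which were counted at over 10 CPM of the library total in GFP 1 and GSTA4 3 and 4 and at 2.56 CPM or less in the other 4. Within the first class the ratio of GSTA4 to GFP means was 2.01 for Abcc1 and 1.44 for Abcc4, with a single GFP library. Within the second class, with 2 libraries a group, it was 1.70 for each. The ratios of Slc7a11 were 0.370 and 1.67 in these classes, and those of Gclm 0.713 and 1.20. Gss stood at 1.15 in the first class and 6.97 in the second, which holds the lens-rich library. With this class as a term, edgeR gave Abcc1 a log2 fold change of 0.86 (adjusted p = 0.448).

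**Figure D4:**
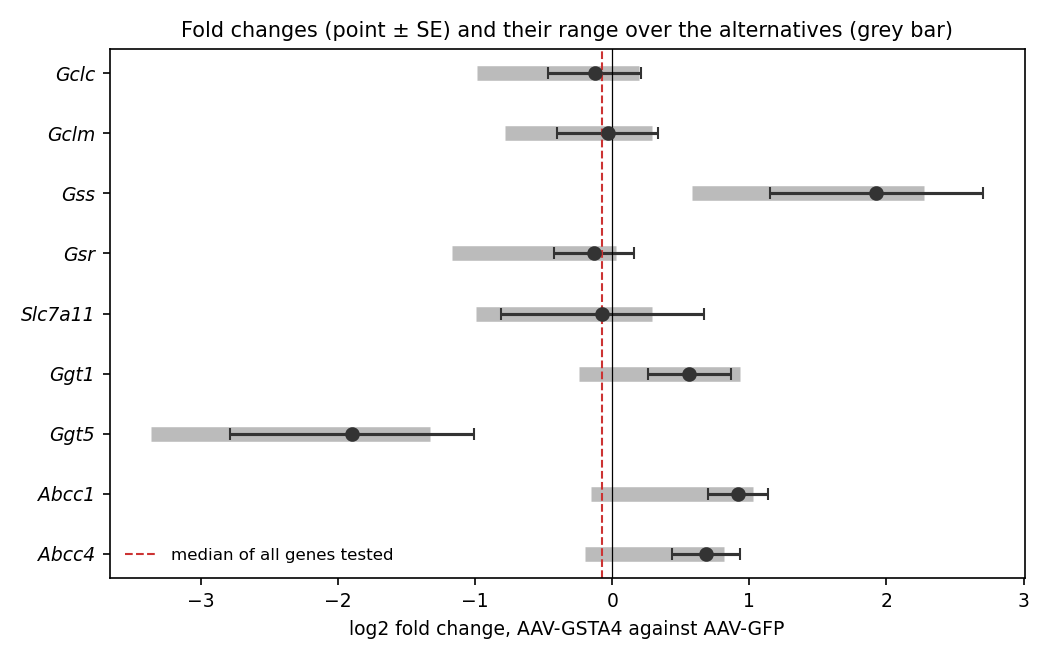
Log2 fold change of each of the 9 genes, GSTA4 against GFP (x axis); points with bars are the estimate ± SE from edgeR, grey bars the range over the alternative settings, and the dashed line the median of all genes tested. Gss and Ggt5 kept their sign over every alternative run, while the grey bars of the other 7 genes cross 0.

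Levels are compared between genes per kilobase of merged exons, as TMM-scaled CPM per kilobase ± SD. In the 3 GFP libraries the order was Gss (9.60 ± 2.90), Ggt1 (9.09 ± 3.88), Abcc4 (4.79 ± 1.26), Gclm (4.52 ± 2.29), Abcc1 (4.51 ± 0.303), Gsr (4.26 ± 0.773), Gclc (3.33 ± 1.17), Slc7a11 (0.925 ± 0.536) and Ggt5 (0.457 ± 0.263). Neighbours in that order that differed by more than either SD were Ggt1 and Abcc4, and Gclc and Slc7a11. In the 4 GSTA4 libraries the order was Gss (36.5 ± 44.3), Ggt1 (13.4 ± 2.11), Abcc1 (8.53 ± 1.58), Abcc4 (7.71 ± 1.11), Gclm (4.42 ± 0.756), Gsr (3.88 ± 0.805), Gclc (3.05 ± 0.759), Slc7a11 (0.879 ± 0.788) and Ggt5 (0.121 ± 0.107). There the neighbours that differed by more than either SD were Ggt1 and Abcc1, Abcc4 and Gclm, Gsr and Gclc, and Gclc and Slc7a11. Merged exon lengths count every annotated exon and understate the level of genes with long, rarely used exons.

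The wider pathway was read through lists that exclude the 9 genes. Genes were named from each list by the smallest p-value, so a lack of overlap follows in part from that choice. With TMM scaling 12% of all genes tested did not overlap (6.44% higher and 5.61% lower). With library totals 14% did not (2.02% higher and 12% lower). Of 15 genes that transport, make or convert cysteine, methionine, glutamate or related compounds, all 15 were tested and edgeR called 0. Their median log2 fold change was 0.33 with TMM scaling and 0.03 with library totals (all genes: -0.07 and -0.37). Among those higher with GSTA4, the smallest p-value was that of Slc1a1, a glutamate and cysteine carrier. It averaged 358 CPM ± 154 (SD, n = 3) with GFP and 745 CPM ± 202 (SD, n = 4) with GSTA4. All GFP libraries lay below the GSTA4 libraries. The log2 fold change was 1.06 ± 0.38 (SE), edgeR adjusted p = 0.373. With library totals Slc1a1 also did not overlap, at 245 to 468 CPM with GFP and 518 to 839 CPM with GSTA4.

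Breakdown enzymes of the gamma-glutamyl cycle numbered 14, of which 13 were tested and 0 passed; none had an unadjusted p-value under 0.05, and their median log2 fold change was 0.24. The most extreme by p-value were Lap3, a leucine aminopeptidase that can split cysteinylglycine (log2 fold change 0.62 ± 0.33, SE), and Ggt7, a further transferase family member (-0.86 ± 0.44, SE). Lap3 had 97.1 CPM in the lens-rich GSTA4 2 and 31.6 to 45.7 CPM in the other 6 libraries. Among 18 genes of thiol reduction and NADPH supply, all 18 were tested and 0 passed, with 9 higher, 9 lower and a median of -0.0040. Me3, a mitochondrial NADP-dependent malic enzyme, averaged 51.3 CPM ± 11.9 (SD, n = 3) with GFP against 88.1 CPM ± 13.8 (SD, n = 4) with GSTA4, for a log2 fold change of 0.78 ± 0.24 (SE), edgeR adjusted p = 0.363. It was the only 1 of the 18 without overlap. With library totals Me3 also did not overlap, at 52.3 to 61.2 CPM with GFP and 64.6 to 91.1 CPM with GSTA4. Glrx5, a mitochondrial glutaredoxin of iron-sulphur cluster assembly, had -0.92 ± 0.40 (SE).

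Among 13 other transporters of glutathione, its conjugates or related cargo, 0 passed and the median log2 fold change was 0.35, or -0.0012 with library totals. Abcb8, a mitochondrial ABC transporter and the only 1 of the 13 without overlap, averaged 37.9 CPM ± 4.51 (SD, n = 3) with GFP against 55.3 CPM ± 8.09 (SD, n = 4) with GSTA4, for a log2 fold change of 0.55 ± 0.21 (SE), edgeR adjusted p = 0.377. With library totals it overlapped, with GFP 3 at 57.1 CPM above GSTA4 2, 3 and 4 at 42.6, 48.8 and 48.6 CPM. Abcg2, an apical drug efflux pump that is also found in endothelium, had -1.15 ± 0.47 (SE) and was highest in GFP 3, at 18.4 CPM. The relatives of Abcc1 and Abcc4, described here after their values were seen, did not share 1 direction. Abcc10 had a log2 fold change of 0.94 ± 0.39 (SE, edgeR adjusted p = 0.397) and Abcc5 0.35 ± 0.24 (SE). Abcc2 and Abcc3, scarce at means under 5 CPM, had -1.99 ± 1.52 (SE) and -1.03 ± 0.81 (SE), and Abcc6 had 1.16 ± 1.18 (SE).

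The lists of 2 stress responses gave no call either. Of 15 genes comprising NRF2 (Nfe2l2), its regulators and targets outside the 9, some of them also counted under NADPH supply, 0 passed in edgeR, 0 were under 0.05 even before adjustment, and the median log2 fold change was 0.28. The smallest p-values in each direction were those of Ftl1, the ferritin light chain (0.70 ± 0.37, SE), and Gsta3, an alpha-class glutathione transferase (-0.80 ± 0.57, SE). Of 10 genes of the ATF4 amino acid response, 0 passed and the median was 0.03. Phgdh, the first enzyme of serine synthesis and the only 1 of the 10 without overlap, averaged 408 CPM ± 152 (SD, n = 3) with GFP against 704 CPM ± 129 (SD, n = 4) with GSTA4 (log2 fold change 0.79 ± 0.32, SE, edgeR adjusted p = 0.393). With library totals its groups overlapped, with GFP 1 at 540.3 CPM and GSTA4 2 at 508 CPM. Asns, the asparagine synthetase, had -0.84 ± 0.39 (SE; edgeR adjusted p = 0.433).

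**Figure D5:**
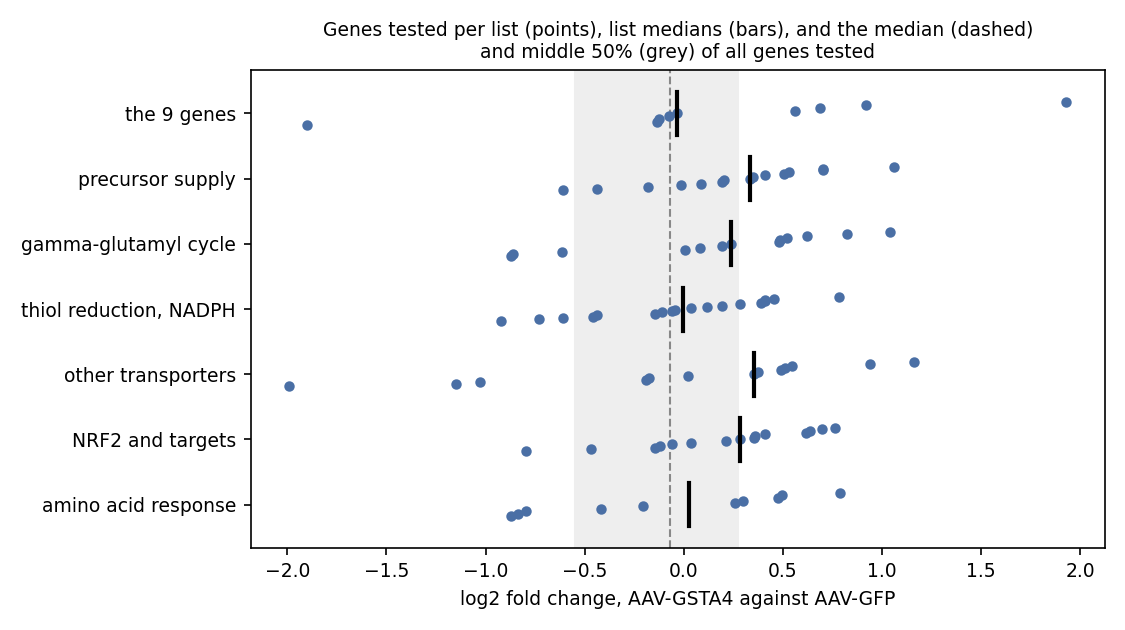
Log2 fold change, GSTA4 against GFP, of each gene tested in the 9-gene set and in 6 lists of related genes (rows); points are genes, black bars list medians, the dashed line the median and the grey band the middle 50% of all genes tested. List medians ran from -0.03 for the 9 genes to 0.35 for the other transporters.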

How the data were processed

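RNA of 7 RPE libraries was measured by sequencing of full-length cDNA made with a low-input kit from polyadenylated RNA, per the labels' protocols. The authors deposited 1 table of raw read counts per gene symbol. Per the submitters' processing notes STAR 2.7.1a and featureCounts 1.6.2 were used, with human and mouse builds (GRCm38) listed; the annotation, strand and multi-mapping settings are not given in the sources used here. The protocols mention no molecular identifiers, so PCR copies count separately and floors cover counting error only.

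The main test was edgeR 4.0.16 (R 4.3.3), quasi-likelihood with TMM scaling, the default expression filter, robust dispersions and the group as the only factor, over all genes, with Benjamini-Hochberg adjustment and a threshold of 0.05. Standard errors are |log2 fold change| over the square root of F. Log2 CPM used a prior count of 2. DESeq2 1.42.0 and limma 3.58.1 (voom with quality weights) were alternatives. Tested on simulated data of this comparison (14710 genes at 4-fold), the fit called 0% of 200 genes changed by 2-fold, 53% by 4-fold and 80% by 8-fold. These percentages describe the simulated data only, and recovery in the measured libraries was not tested. In the measured libraries the hGSTA4 row, at a log2 fold change of 10.7, was not called by the main test. Total counts ranged from 15329181 to 28998964, so 3 counts, the detection floor, were 0.111 to 0.176 CPM. No pair of replicates agreed within sampling noise (chi-square per gene at least 57.5). Of the symbols, 24 were on more than 1 row, none of them among the 9.

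Columns were assigned by library names, and replicates are numbered as in the titles. Exon lengths and positions are from GENCODE M21 (GRCm38). The named genes are the 9, hGSTA4, d2EGFP and Gsta4, the smallest p-value in each direction in each pathway list, and the 5 genes most like Gclc. The members and lists were chosen with earlier results of these data known. The alternatives also covered other scalings and filters, replicate blocks, the Y-linked class and each library left out. The result of 1 gene that this rule names is not reported here.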

Additional observations from a re-analysis of the deposited data

Results flagged for a closer look

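In AAV-GSTA4, replicate 2 was isolated from the other 3 libraries for 2 of 43 results examined, where chance gives about 1 in 20. For Gss, at 607 CPM, the gap to the nearest library was 0.910 of the group's range. For Lap3, at 97.1 CPM, the gap was also 0.910 of the range. The 10 lens markers took 12.2% of counts in this library, and their part in either value was not tested.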

How the results depend on the processing

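In edgeR 0 genes passed the adjusted threshold, with 1794 at an unadjusted p-value under 0.05. The number was also 0 for limma-voom, the Y-linked class, the 2 other scalings and the 2 other filters. It was 201 in DESeq2, where the count among the 9 genes was 1 (Abcc1); the cause was not tested. With a replicate block by title number or by library number it was 1 each (hGSTA4), and leaving out each library gave 0 to 1 (hGSTA4, without AAV-GSTA4 replicate 3). Equal numbers share only a number: deviations of same-numbered libraries correlated at -0.09 to 0.01 by title and -0.13 to 0.01 by library number, and 0 of 6 and 2 of 6 libraries correlated best with their own number.

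Of 161 values of single genes under alternatives, 142 kept their direction and side of the threshold, 1 passed it (Abcc1 in DESeq2) and 18 changed sign; the causes were not tested. Gclm was 0.19 and 0.15 with the replicate block by title and library number. With RPE marker counts as library size, chosen after seeing the data, Ggt1 was -0.25, Abcc1 -0.15 and Abcc4 -0.20, and without AAV-GFP replicate 3 on that scale Ggt1 was -0.11. The median of all genes tested was -1.07 on that scale and -0.37 without that library. Leaving out single libraries gave -0.30 to 0.20 for Gclc, -0.39 to 0.29 for Gclm, -0.27 to 0.028 for Gsr, -0.86 to 0.29 for Slc7a11 and 0.30 to 0.93 for Ggt1. Unadjusted calls split 795 higher to 999 lower with TMM, 268 to 2122 with library totals and 14 to 4959 with the RPE scale. Ggt5 has no value with a minimum of 10 counts in every library, since 2 GSTA4 libraries had fewer, and its low counts limit its precision.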

Other observations

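The highest transgene level and the highest pump levels fell in different AAV-GSTA4 libraries. The hGSTA4 row was at 221, 251, 2.64 and 43.6 CPM in replicates 1 to 4, and Abcc1 was highest, at 159.8 CPM, in replicate 3, where hGSTA4 was lowest. Abcc4 was highest in replicate 1, at 57.1 CPM. Replicate 3 also had the lowest Slc7a11 of all 7, at 2.11 CPM, and the lowest Chac1, at 2.99 CPM against 13.5 to 40.5 CPM elsewhere. Chac1 is a glutathione-degrading enzyme induced, like Slc7a11, through ATF4, and it was chosen after its values were seen.

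AAV-GFP replicate 3 was the lowest library for 4 of the 9 genes (Gclm, Gss, Ggt1 and Abcc4) and the highest for Ggt5. AAV-GSTA4 replicate 2 was the highest for 3 (Gss, Slc7a11 and Ggt1) and the lowest for Ggt5. These 2 libraries are those set apart by rod and lens RNA, at 5.31% rod markers in the first and 12.2% lens markers in the second.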
